A study of Mus musculus with 7 samples.

Results

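The imprinted growth network genes are 10 genes, H19, Igf2, Dlk1, Meg3, Peg3, Grb10, Plagl1, Mest, Ndn and Gnas, chosen by symbol from the 15415 genes of the deposited table. All 10 had a row, and 7 of them held enough reads to be tested. RNA was sequenced from live, CD45-negative hair follicle cells of mouse back skin, sorted on the green fluorescent protein that reads out Lgr5, a stem cell gene of the follicle. The animals were a C57Bl6 x B10D2 cross, with 3 libraries from 45-day mice in Telogen (the hair cycle's rest) and 4 libraries from 35-day mice in Anagen (its growth phase). No allele or agent other than the Lgr5 reporter is given for either group, and the labels do not say whether each library came from a separate animal; p-values therefore reflect only how these libraries vary, which may be technical. All Telogen mice were older than all Anagen mice, and age and phase cannot be told apart.

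An imprinted gene is read mainly from a single parental copy, because methylation of CpG sites at a control region differs between the parental copies. Many imprinted genes act on growth: paternally expressed ones such as Igf2, Dlk1, Peg3 and Mest often favour it, and maternally expressed ones such as H19 and Grb10 often restrain it. Plagl1, a zinc finger transcription factor that is itself imprinted, was described in mouse as a regulator of several others, and the genes are known to be expressed together in embryonic and mesenchymal tissue and to decline after birth. The counts do not separate the parental copies, so imprinting itself was not measured.

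Among the 7 genes tested, Plagl1 rose in Anagen, Gnas, Ndn and Peg3 fell, and H19, Mest and Grb10 did not pass the test. Tests were edgeR quasi-likelihood tests, with p adjusted over all genes by Benjamini and Hochberg's method. The fall of Peg3 rested on 1 Telogen library. The other 3 genes, Igf2, Dlk1 and Meg3, had few reads: Dlk1 was read in Telogen alone and Meg3 in 2 Anagen libraries alone. Of all 12266 genes tested, 49.5% passed the test, 25.8% higher and 23.7% lower in Anagen, so 4 of 7 (57.1%) is close to the background. The median log2 fold change (Anagen minus Telogen) was -1.76 over the 7 genes and 0.09 over all genes tested. The median of the 7 is the value of Peg3 itself, which was -0.43 without Telogen 3.

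The starts of the genes that changed, and of Dlk1, are shown because CpG sites, at which DNA can be methylated, and the Plagl1 motif can be read in them. Whether these windows carry an imprint was not tested. Each window runs from 250 bases before to 50 bases after a transcript start (RefSeq, GRCm38.p6, the assembly of mm10), 5′ to 3′ on the gene's strand, with CpG dinucleotides in capitals.
Plagl1 (chr10:13090582-13090881, plus strand): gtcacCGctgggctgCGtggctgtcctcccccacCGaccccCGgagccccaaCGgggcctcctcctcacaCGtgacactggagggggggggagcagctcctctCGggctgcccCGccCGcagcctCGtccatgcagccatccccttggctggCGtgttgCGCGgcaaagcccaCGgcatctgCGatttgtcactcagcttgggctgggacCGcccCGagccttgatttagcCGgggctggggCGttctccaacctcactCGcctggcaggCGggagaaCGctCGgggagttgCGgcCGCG
Gnas (chr2:174327518-174327817, plus strand): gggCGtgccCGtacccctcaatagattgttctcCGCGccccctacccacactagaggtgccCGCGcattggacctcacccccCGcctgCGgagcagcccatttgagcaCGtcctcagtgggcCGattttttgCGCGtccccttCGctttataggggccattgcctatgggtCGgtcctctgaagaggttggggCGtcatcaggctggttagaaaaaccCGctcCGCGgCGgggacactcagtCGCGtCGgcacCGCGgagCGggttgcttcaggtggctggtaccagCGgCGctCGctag
Ndn (chr7:62348027-62348326, plus strand): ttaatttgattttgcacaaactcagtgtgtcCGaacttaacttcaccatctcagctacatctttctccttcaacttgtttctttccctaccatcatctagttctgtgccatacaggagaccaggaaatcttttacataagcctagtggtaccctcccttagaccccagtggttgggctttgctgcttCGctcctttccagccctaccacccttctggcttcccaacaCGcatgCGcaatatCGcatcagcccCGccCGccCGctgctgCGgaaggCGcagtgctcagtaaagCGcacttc
Peg3 (chr7:6730370-6730669, minus strand): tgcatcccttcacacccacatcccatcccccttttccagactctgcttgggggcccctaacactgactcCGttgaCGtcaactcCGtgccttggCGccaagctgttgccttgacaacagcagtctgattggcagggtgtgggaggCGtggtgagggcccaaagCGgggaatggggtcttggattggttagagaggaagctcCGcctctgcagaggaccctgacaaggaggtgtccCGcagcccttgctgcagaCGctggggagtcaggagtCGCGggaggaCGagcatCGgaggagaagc
Dlk1 (chr12:109452573-109452872, plus strand): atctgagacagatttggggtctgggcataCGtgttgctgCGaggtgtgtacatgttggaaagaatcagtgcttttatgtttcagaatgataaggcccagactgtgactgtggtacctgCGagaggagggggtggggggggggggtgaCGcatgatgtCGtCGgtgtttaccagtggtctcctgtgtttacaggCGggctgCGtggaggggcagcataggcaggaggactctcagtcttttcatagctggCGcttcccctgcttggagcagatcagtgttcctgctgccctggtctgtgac

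These windows held 26 CpG sites for Plagl1, 28 for Gnas, 11 for Ndn, 13 for Peg3 and 9 for Dlk1, against a median of 7 over 32851 promoter windows of the same length. Windows were found for 9 of the 10 genes, 19 windows in all, since several genes have more than 1 start. The 8-base motif bound by Plagl1, GGGGCCCC, which reads the same on both strands, was present in 1 of the 19 windows, that of Peg3, where it began 201 bases before the start; 1.08% of all windows held it. A match is only a match of letters. The Gnas row of the table began at the start shown here, and another RefSeq start of Gnas lay 2238 bases further on, with 40 CpG sites in its window. Transcripts of the Gnas locus share their later exons, so the row does not separate them.

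Libraries held 5097457 to 6453337 counted reads in Telogen and 13719893 to 17042690 in Anagen, without overlap, and depth and phase cannot be told apart. Levels below are in CPM, read counts scaled to a common library size with edgeR's TMM factors, and 3 reads corresponded to 0.165 to 0.594 CPM per library. All 12 markers of follicle epithelium were detected and summed to 21669 to 30716 CPM in Telogen and 31256 to 35623 in Anagen. Of these, 6 rose and 5 fell. On average Lgr5, the sorted gene, fell from 460.3 to 56.1 CPM, Krt15 from 8629 to 171 and Cd34 from 511 to 12.7. Krt17 rose from 102 to 2330 CPM and Krt14 from 830 to 5688. Whether the mix of epithelial cells differed between the groups was not tested. Dermal fibroblast markers summed to 1091 and 1537 CPM in Anagen 1 and Anagen 2, but to 87.4 and 110.4 in Anagen 3 and Anagen 4 and to 83.9 to 109 in Telogen. Col1a2 and Col3a1 were the highest in Anagen 1 and Anagen 2, and Fbln1 and Col1a2 in Telogen. Of 11 tested, 8 rose and 1 fell. Of the 11, Dcn, Lum and Col6a3 had 0 reads in Telogen, and Col3a1, Dpt and Fbn1 had few. All of these entered the test through their Anagen reads alone. Dermal papilla markers summed to 23.8 to 59.7 CPM in Telogen and 0.504 to 6.95 in Anagen (2 of 3 tested fell, Hhip and Crabp1). Melanocyte markers summed to 166 to 319 and 19.6 to 24.7 CPM, mostly Mitf in Telogen and led by Pmel and Mitf in Anagen (of 4 tested, Pmel rose and Mitf fell), and Schwann cell markers to 299 to 1552 and 129 to 262 CPM, mostly Pmp22 (2 of 5 rose, 2 fell). Leukocyte markers reached 6.58 to 30.5 and 5.67 to 11.3 CPM (1 of 3 tested fell), endothelial ones 1.28 to 2.85 and 2.45 to 10.6 (1 of 2 rose), muscle ones 0.639 to 2.14 and 7.46 to 12.8 (1 of 2 rose), and adipocyte ones 0 to 13.5 and 0 to 2.48 (0 tested). The part of these other cell types in the results was not tested. Cd3g had 0 reads in Anagen and Crabp1 had 1, and both entered the test through their Telogen reads alone. Cdh5 and Myh4 had 0 reads in Telogen and entered it through their Anagen reads alone. Of all genes tested, 25.8% rose and 23.7% fell.

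**Figure D1:**
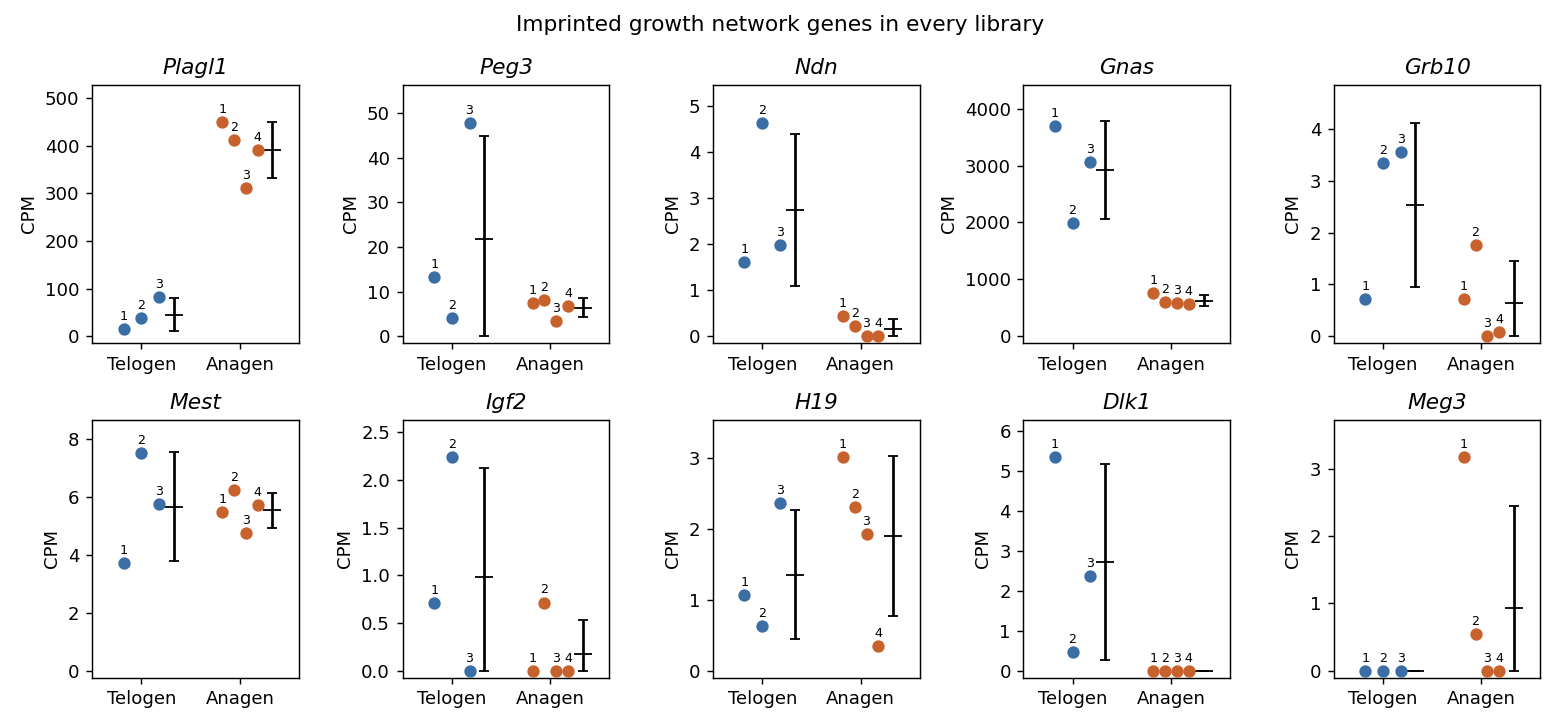
CPM of each of the 10 imprinted growth network genes (y axes, each from 0) in the 3 Telogen and 4 Anagen libraries, with library numbers above the points; the horizontal mark and bar give the mean and SD, cut at 0. Plagl1 is higher and Gnas, Ndn and Dlk1 are lower in every Anagen library than in every Telogen library. Groups do not overlap in 3 of the 7 genes tested (42.9%) and in 54.5% of all genes tested. The reads of Meg3, Igf2 and Ndn in Anagen lie in Anagen 1 and Anagen 2.

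Plagl1 encodes a zinc finger transcription factor known to slow the cell cycle (NM_009538, mm10 chromosome 10, 13090788 to 13131695). Its level was 15.8, 37.4 and 83.0 CPM in Telogen 1 to 3 and 449, 412, 311 and 390.2 CPM in Anagen 1 to 4. The lowest Anagen library was above the highest Telogen library. Such separation of the groups was common, at 54.5% of all genes tested and 3 of these 7 (42.9%). The mean went from 45.4 ± 34.3 CPM (SD, n = 3) to 391 ± 58.2 CPM (SD, n = 4), a log2 fold change of 3.11 ± 0.46 (SE; adjusted p = 0.000305, edgeR), or 8.63-fold. Without Telogen 3, the highest of its group, the log2 fold change was 3.88, and without Telogen 1, the lowest, it was 2.71. Without Anagen 1 and Anagen 2, the libraries with high fibroblast markers, it was 2.95. By length-normalised level, Plagl1 stood at the 66.0th percentile of the listed genes in Telogen and at the 94.9th in Anagen.

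Ndn, whose product necdin is a growth suppressor of the MAGE protein family known best from neurons, went the other way (NM_010882, chromosome 7, 62348277 to 62349927). It was read 9, 29 and 10 times in Telogen 1 to 3, which is 1.601, 4.63 and 1.98 CPM, and 6, 4, 0 and 0 times in Anagen 1 to 4, at 0.432 and 0.220 CPM in the first pair. Every Telogen library was above every Anagen library although the Anagen libraries were deeper. The mean fell from 2.74 ± 1.65 CPM (SD, n = 3) to 0.163 ± 0.207 (SD, n = 4), a log2 fold change of -3.99 ± 1.16 (SE; adjusted p = 0.0151, edgeR). Ndn passed the filter on low counts through the Telogen libraries alone. The call was lost without Telogen 2, which held 60.4% of its Telogen reads (log2 fold change -3.37, adjusted p = 0.0797 by the same edgeR test), and the log2 fold change was -4.93 without Anagen 1. Without Anagen 1 and Anagen 2 no Anagen read was left and Ndn was at least 27.9-fold lower.

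Peg3, which encodes a paternally expressed zinc finger protein also used as a marker of some adult stem and progenitor cells in mouse, had levels that overlapped between the groups (NM_008817, chromosome 7, 6705960 to 6730419). They were 13.2, 4.15 and 47.9 CPM in Telogen 1 to 3 and 7.34, 8.15, 3.35 and 6.71 CPM in Anagen 1 to 4. Telogen 3 alone held 70.8% of the Telogen reads, and Telogen 2 lay within the Anagen range. The log2 fold change was -1.76 ± 0.65 (SE; adjusted p = 0.0435, edgeR), with means of 21.7 ± 23.1 CPM (SD, n = 3) and 6.39 ± 2.11 CPM (SD, n = 4). Without Telogen 3 it was -0.43 (adjusted p = 0.548 by the same edgeR test). The call was also lost without any one Anagen library (edgeR adjusted p = 0.0750, 0.0596, 0.104 and 0.0832 without Anagen 1 to 4).

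Gnas encodes the stimulatory G protein alpha subunit, which couples receptors to adenylyl cyclase, and is imprinted in some tissues and for some of its transcripts only (NM_001310083, chromosome 2, 174327768 to 174346742). It was by far the most abundant of the 10 genes, at 3699, 1988 and 3067 CPM in Telogen 1 to 3 and 760.5, 604, 575 and 566 CPM in Anagen 1 to 4. The groups did not overlap, and the lowest Telogen library was more than 2-fold above the highest Anagen one. The mean fell from 2918 ± 865 CPM (SD, n = 3) to 626 ± 90.9 CPM (SD, n = 4), 4.66-fold, with a log2 fold change of -2.22 ± 0.22 (SE; adjusted p = 2.34e-05, edgeR). Across the alternatives run, its log2 fold change lay between the value without Telogen 2 (-2.43) and that without Telogen 1 (-2.004), and the call was kept in each. Gnas made up 95.4 to 98.9% of the summed CPM of the 10 genes in Telogen and 58.3 to 64.2% in Anagen, where Plagl1 supplied most of the rest. An antisense gene, Gm20721, shares 1469 bases with the exons that GENCODE M21 gives Gnas within the row's span, 29.5% of those exonic bases. These are the exons of all annotated Gnas transcripts, not of the row's transcript alone. Whether reads were counted by strand is not given in the sources used here, so reads of the pair cannot be told apart.

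**Figure D2:**
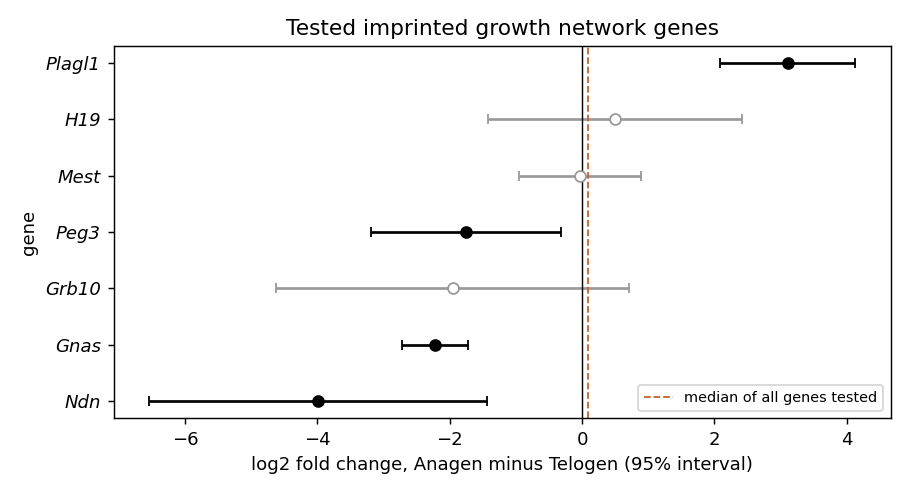
Log2 fold change, Anagen minus Telogen, of the 7 imprinted growth network genes that were tested (x axis), with 95% intervals from edgeR's quasi-likelihood fit; filled points passed the adjusted threshold of 0.05 and the dashed line is the median of all genes tested, 0.09. Plagl1 lies above 0 at 3.11, Peg3, Gnas and Ndn lie below it, and the intervals of H19, Mest and Grb10 include 0.

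Mest, a paternally expressed gene of the alpha/beta hydrolase fold family, had close means in both phases (NM_001252292, chromosome 6, 30738053 to 30748466). It was at 3.74, 7.51 and 5.74 CPM in Telogen 1 to 3 and at 5.47, 6.22, 4.76 and 5.71 CPM in Anagen 1 to 4, so all Anagen values lay within the Telogen range. The log2 fold change was -0.03 with a 95% interval from -0.96 to 0.89 (adjusted p = 0.956, edgeR), which leaves room for a change in either direction of nearly 2-fold. Copg2, a coat protein gene on the opposite strand, shares 912 bases with the GENCODE M21 exons of Mest within the row's span (28.1% of them). It had more reads, 210 to 253 in Telogen and 520 to 761 in Anagen, against 21 to 47 and 74 to 113 for Mest. Part of the Mest count may therefore belong to Copg2.

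Grb10 encodes an adaptor that binds the insulin and IGF1 receptors and restrains their signalling (NM_010345, chromosome 11, 11930499 to 12037420). It was at 0.712, 3.35 and 3.56 CPM in Telogen 1 to 3 and at 0.720, 1.76, 0 and 0.0714 CPM in Anagen 1 to 4. Anagen 1 and Anagen 2 held 97.7% of the Anagen reads and lay above Telogen 1. Its log2 fold change of -1.96 had a 95% interval from -4.62 to 0.71 (adjusted p = 0.201, edgeR). Without both of those libraries 1 Anagen read was left against 43 in Telogen, a ratio of 75.0 (95% interval 12.8 to 3031, counting error only), and Grb10 passed as lower (adjusted p = 0.0219, edgeR).

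H19 and Igf2 are neighbours on chromosome 7 and are read from opposite parental copies under 1 shared control region. H19, a maternally expressed long non-coding RNA (NR_130973, 142575530 to 142578146), was at 1.07, 0.639 and 2.38 CPM in Telogen 1 to 3 and at 3.02, 2.31, 1.93 and 0.357 CPM in Anagen 1 to 4. The groups overlapped, with Anagen 4 the lowest of all 7 libraries, and the log2 fold change was 0.50 with a 95% interval from -1.43 to 2.42 (adjusted p = 0.660, edgeR). It was 1.16 without Telogen 3 and turned to -0.23 without both Anagen 1 and Anagen 2, and did not pass in either case (adjusted p = 0.393 and 0.897, edgeR). Igf2, the paternally expressed insulin-like growth factor (NM_010514, 142650768 to 142658804), was read 4, 14 and 0 times in Telogen 1 to 3, and 13 times in Anagen, all in Anagen 2. That is 0.712, 2.24 and 0 CPM against 0.716 CPM in Anagen 2, too few reads to pass the filter, and an exact two-sided permutation test of the CPM over all 35 arrangements of the libraries gave p = 0.371. Reads of both genes were thus present in 3 libraries, Telogen 1, Telogen 2 and Anagen 2. Another annotated gene on the same strand, Gm49394, shares 78.8% of the exonic bases that GENCODE M21 gives Igf2 within the row's span.

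Dlk1 and Meg3 form a second such pair, on chromosome 12. Dlk1 encodes a paternally expressed membrane protein related to Notch ligands and known as a marker of preadipocytes (NR_033813, 109452823 to 109463336). It was read 30, 3 and 12 times in Telogen 1 to 3, at 5.34, 0.479 and 2.38 CPM, and 0 times in each Anagen library, where 3 reads over the group would be 0.0487 CPM. Dlk1 was at least 54.6-fold lower in Anagen, at least 27.2-fold without Telogen 1 and at least 80.8-fold without Telogen 2 (exact two-sided permutation p = 0.0286 on the CPM, the smallest that 35 arrangements allow; with 1 library left out this test cannot reach 0.05). Only 2 Telogen libraries were over the filter on low counts, so it was not among the 7 genes tested; with no filter it passed (adjusted p = 0.00295, edgeR), and Peg3 no longer did (adjusted p = 0.0603). Meg3, a maternally expressed long non-coding RNA (NR_003633, 109545398 to 109568650), had the opposite distribution, with 0 reads in Telogen and 44, 10, 0 and 0 reads in Anagen 1 to 4, at 3.17 and 0.551 CPM in the first pair. By summed reads it was at least 4.95-fold higher in Anagen, but at least 1.18-fold without Anagen 1 and at least 3.12-fold without Telogen 2, and the exact two-sided permutation test gave p = 0.429. No library held reads of both Dlk1 and Meg3.

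**Figure D3:**
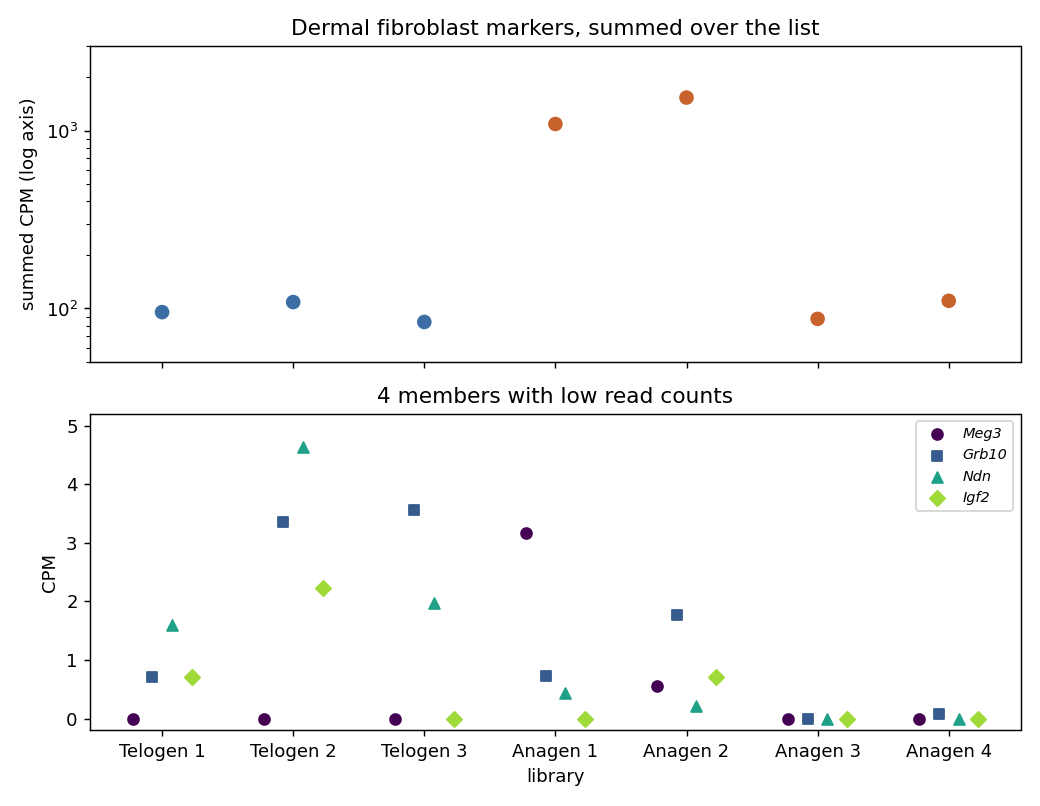
Top, summed CPM of the dermal fibroblast markers per library (log axis); bottom, CPM of Meg3, Grb10, Ndn and Igf2 in the same libraries. Anagen 1 and Anagen 2 have the high marker sums, 1091 and 1537 CPM, and of the Anagen libraries they hold all reads of Meg3, Ndn and Igf2 and 97.7% of those of Grb10, while Grb10, Ndn and Igf2 also have reads in Telogen libraries with marker sums of 83.9 to 109 CPM.

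Among the Anagen libraries, Anagen 1 and Anagen 2 held all the reads of Meg3, Ndn and Igf2, 97.7% of those of Grb10 and 70.6% of those of H19. The share was 63.1% for Peg3, 57.1% for Plagl1, 56.1% for Gnas and 55.1% for Mest. Anagen 1 and Anagen 2 held 13913148 and 17042690 counted reads, against 15012564 and 13719893 in Anagen 3 and Anagen 4. Depth alone would thus also give the first pair the slightly larger share. Whether the reads in Anagen 1 and Anagen 2 came from fibroblasts was not tested. Because each library pools many cells, fewer cells of a type and less RNA per cell cannot be told apart.

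On the RPKM scale, which divides by gene length and so lets genes be compared, Gnas led in both phases, at 715 ± 198 RPKM in Telogen (SD, n = 3) and 164 ± 20.9 in Anagen (SD, n = 4). Plagl1 was next, at 8.42 ± 6.55 and 76.3 ± 10.9 RPKM. In Telogen Peg3 (3.20 RPKM), Mest (2.04) and Ndn (1.602) followed, then H19 (0.576), Dlk1 (0.552), Grb10 (0.486) and Igf2 (0.233), with Meg3 at 0. Only the first of the 9 neighbouring pairs in that order, Gnas over Plagl1, did not overlap between libraries. In Anagen Mest (2.13 RPKM) and Peg3 (0.992) came next, then H19 (0.855), and Grb10, Ndn, Meg3 and Igf2 were at 0.131 RPKM or below, with Dlk1 at 0; there 3 neighbouring pairs did not overlap, Gnas over Plagl1, Plagl1 over Mest and Mest over Peg3.

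Beyond the 10 genes, 45 of 55 other imprinted genes on a list had a row, and the remaining 10 were not analysed here. Of the 34 tested, 11 rose and 5 fell, 47.1% against 49.5% of all genes tested, with a median log2 fold change of 0.13. The 5 with the largest increases had 0 reads in Telogen: Dcn, a small matrix proteoglycan that is also a fibroblast marker, was at least 328-fold higher, Rasgrf1, a Ras exchange factor, at least 91.6-fold, Kcnq1ot1, a long non-coding RNA that silences its neighbours, at least 30.9-fold, Ddc, an amine-forming decarboxylase, at least 15.4-fold (8.46-fold without Anagen 3), and Dio3, which inactivates thyroid hormone, at least 13.3-fold. Each lower bound against 0 reads in Telogen is 1.59 times smaller without Telogen 2. These 5 genes passed the filter on low counts through the Anagen libraries alone, so they could be tested only because they were high there. Cobl, an actin nucleator, followed with a log2 fold change of 2.82 ± 0.58 (SE), or 4.02 without Telogen 2. Those that fell were Gatm, of creatine synthesis (2 reads in Anagen, ratio 762, 95% interval 209.6 to 6313, at least 393-fold without Anagen 1), the amino acid transporter gene Slc38a4 (33.6-fold), Cdkn1c, an inhibitor of cyclin-dependent kinases (3.91-fold), Commd1 (3.72-fold) and Inpp5f (1.98-fold). Gatm passed the filter on low counts through the Telogen libraries alone. Cdkn1c was no longer past the threshold without Telogen 1 or Telogen 2 or without Anagen 1, Anagen 2 or Anagen 3. Inpp5f lost its call without Telogen 2. Without both Anagen 1 and Anagen 2, 7 rose and 3 fell of 32 tested, against 2118 and 2206 of all 11673 genes tested. Dcn, Rasgrf1, Kcnq1ot1, Cobl, Gatm, Slc38a4 and Commd1 were among those that still passed.

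**Figure D4:**
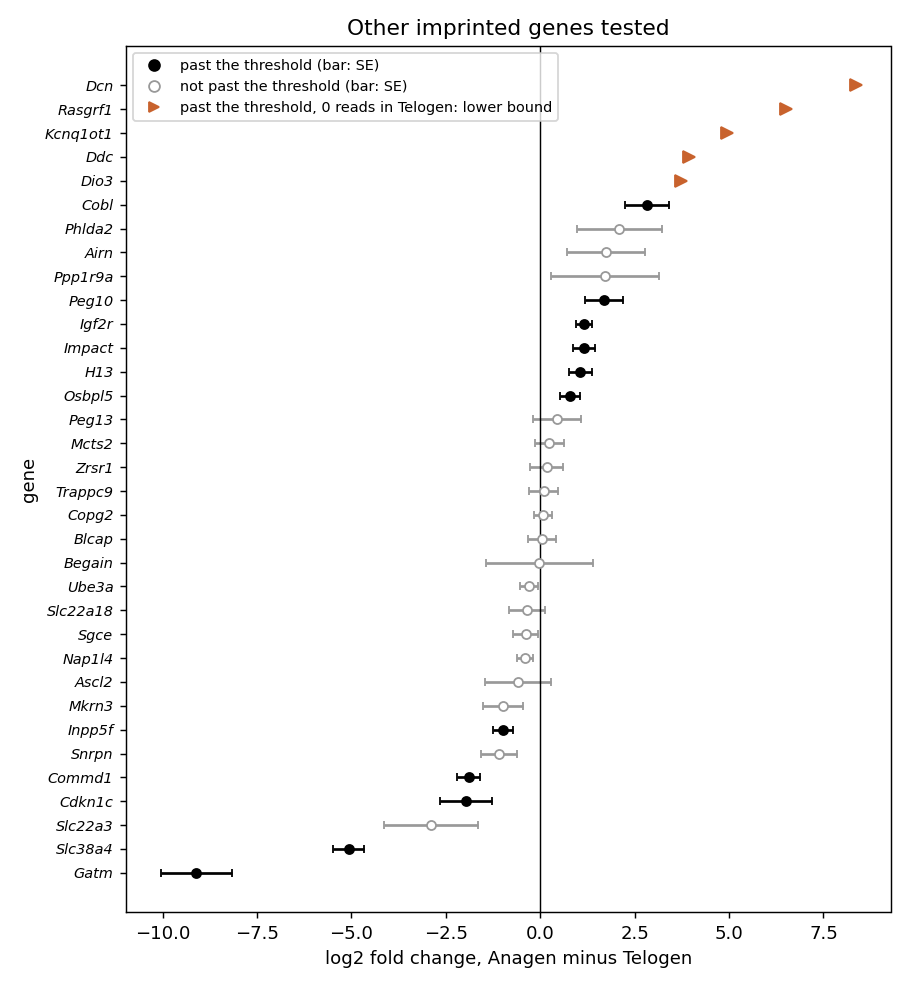
Log2 fold change, Anagen minus Telogen (x axis), of the 34 other imprinted genes that were tested; filled points passed the adjusted threshold of 0.05, bars are SE, and triangles are lower bounds for genes with 0 reads in Telogen. The 11 genes that rose lie above 0 and the 5 that fell below it, and the 18 that did not pass lie on both sides of 0, some with larger changes but wider bars.

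Genes that share a locus with one of the 10 did not all move with it. Next to Dlk1 and Meg3, Dio3 rose, Begain did not pass (log2 fold change -0.03 ± 1.42, SE), and Rian, a non-coding RNA downstream of Meg3, had 0 reads in Telogen and 9 in Anagen. Next to Grb10, which did not pass, Cobl and Ddc rose. At the Ndn locus Mkrn3 did not pass (log2 fold change -0.97 ± 0.53, SE) and Magel2 had 4 reads, all in Anagen 2. Copg2 next to Mest did not pass (0.08 ± 0.24, SE). Zim1 next to Peg3 was read 14 times, all in Telogen 2, and Nespas, antisense at the Gnas locus, 6 times, 5 of them in Anagen 3.

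Binding partners and brakes of IGF2 and insulin were next considered, since Igf2, Grb10 and H19 bear on that pathway. Of 12 tested genes of the pathway, 6 fell and 2 rose, 66.7% against 49.5% of all genes tested, with a median log2 fold change of -0.60 against 0.09. The falls were 5 genes for IGF binding proteins, which hold IGFs in the extracellular space, and 1 adaptor: Igfbp3 fell 14.2-fold, from 302 ± 64.2 CPM (SD, n = 3) to 21.3 ± 11.3 CPM (SD, n = 4), Igfbp5 11.6-fold, Igfbp6 10.2-fold, Igfbp7 4.83-fold, Igfbp4 1.99-fold (not past the threshold without Telogen 1) and the receptor substrate gene Irs1 8.12-fold. Igf2r, an imprinted receptor that clears IGF2, rose 2.23-fold, from 48.5 ± 11.7 to 108 ± 6.87 CPM (SD), and the insulin receptor gene Insr 3.15-fold; Igf2r also counts among the 11 imprinted genes that rose. The receptor gene Igf1r did not pass (log2 fold change -0.19 ± 0.29, SE), and the ligand gene Igf1 was not tested; both are named after their values were seen. Igf1 had 0 reads in Telogen and 29, 192, 5 and 4 in Anagen 1 to 4, so that it was at least 21.1-fold higher by summed reads and at least 4.94-fold without Anagen 2, the library with the highest fibroblast marker sum.

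Genes of imprint and DNA methylation maintenance were also compared. The list held genes that keep or remove DNA methylation, on which imprints rest, and chromatin genes such as Ctcf, Ezh2, Setdb1 and Atrx. Of 20 tested, 10 rose and 1 fell, 55.0% against 49.5% of all genes tested, and the median log2 fold change was 0.98 against 0.09. Dnmt3l, a cofactor of new DNA methylation known from germ cells, had no Telogen read and passed the filter through the Anagen libraries alone. Its Anagen level was at least 105-fold higher, at 17.99, 24.4, 20.7 and 9.28 CPM in Anagen 1 to 4. Tet3 and Tet2, which oxidise methylated cytosine, rose 3.74-fold and 3.64-fold, Cxxc1, which binds unmethylated CpG sites, 2.91-fold, the methyltransferase gene Dnmt3a 2.82-fold and Trim28, a corepressor known to protect imprints, 2.57-fold. Zfp445, a zinc finger gene of imprint maintenance, fell (log2 fold change -0.53 ± 0.20, SE; adjusted p = 0.0429, edgeR), a call lost without Telogen 2 or without any one Anagen library.

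Around Gnas, 4 of 17 tested genes of Gs and cAMP signalling rose and 3 fell, 41.2% against 49.5% of all genes tested, with a median log2 fold change of 0.05 against 0.09. Ric8b, whose product is a chaperone of the Gs alpha subunit, fell 3.01-fold, from 154 ± 31.8 CPM (SD, n = 3) to 51.1 ± 9.10 CPM (SD, n = 4), Crem, a cAMP-responsive transcription factor gene, fell 2.37-fold, and Prkacb, a catalytic subunit of protein kinase A, fell 1.602-fold (not past the threshold without Telogen 1, Telogen 3, Anagen 1, Anagen 2 or Anagen 3). The adenylyl cyclase genes Adcy7 and Adcy6 rose 15.4-fold and 3.07-fold, and the protein kinase A subunit genes Prkaca and Prkar2a rose 3.35-fold and 2.41-fold. With DESeq2-type size factors or with DESeq2, 5 of the genes fell.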

How the data were processed

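The deposited table held counts of reads per gene and, per the file headers, RPKM for 3 Telogen and 4 Anagen libraries made with the Ovation RNA-Seq System V2 kit per the labels' protocols. Per the submitters' processing notes the genome was mm10. Which aligner and counter were used, and whether strand was, is not given in the sources used here. RPKM from the authors equalled count over length and total in 107905 of 107905 values (relative tolerance 1e-06). Each row spans 1 RefSeq transcript; starts are given 1-based.

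Counts were tested with edgeR 4.0.16 (R 4.3.3; TMM, minimum count 10, minimum total 15, robust quasi-likelihood fit, groups only), with Benjamini-Hochberg adjustment over 12266 genes and a threshold of 0.05. The filter asked for 0.729 CPM in 3 libraries. Fold changes are Anagen over Telogen. Intervals of ratios and bounds against 3 reads over a group cover counting error only. The code was tested on simulated counts. The genes and lists were chosen with earlier results of these data known. Named genes were the 10, genes at their loci, and up to 6 per direction and list with the largest change past the threshold. Alternatives were DESeq2 1.42.0, its size factors, no filter, thinning to 5097457 reads, a 2-fold minimum, a replicate block and leaving out libraries.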

Additional observations from a re-analysis of the deposited data

Results flagged for a closer look

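Igf2 in Anagen was uneven: 1 library, Anagen 2, held all 13 reads. Its gap to the other 3 libraries was the whole range of the group (gap over range of 1, past Dixon's 95% critical value for 4 libraries). Any gene read in only 1 library of a group gives a value of 1, so the flag adds nothing to the counts. Chance alone would flag about 1 in 20 groups, and 9 genes with reads in Anagen were examined. Anagen 2 also had the highest dermal fibroblast marker sum, 1537 CPM, and 192 of the Igf1 reads; the part of these cells in it was not tested.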

How the results depend on the processing

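Plagl1 rose and Gnas fell under every alternative run. Under the replicate block, 1 of the 10 genes fell (Gnas) and 3 other imprinted genes did; Ndn and Peg3 lost their calls (adjusted p = 0.0745 and 0.342 by edgeR's quasi-likelihood test). Deviations of same-numbered libraries had small correlations, 0.004, 0.079 and -0.045 for numbers 1 to 3. Whether same-numbered libraries shared a batch that acts on some genes only was not tested. With no filter 3 of the 10 fell, Dlk1 in place of Peg3, and 2904 of all 15415 genes fell. Thinned to 5097457 reads, 2 of the 5 then tested fell, Gnas and Peg3, as Ndn was no longer tested. Over all genes 2929 of 11232 fell there. Without Anagen 1 and Anagen 2, 4 of the 8 then tested fell (Gnas, Ndn, Dlk1 and Grb10). There 7 other imprinted genes rose and 3 fell, and 0 imprint maintenance genes fell by edgeR's quasi-likelihood test. Over all 11673 genes then tested, 2118 rose and 2206 fell. Leaving out 1 library at a time, 6 to 8 of the 10 were tested, of which 1 rose and 2 to 3 fell. Over all genes, 2587 to 3208 rose and 2526 to 2802 fell. Among other imprinted genes 8 to 11 rose and 3 to 5 fell, and 0 to 1 imprint maintenance genes fell. That last count was 2 with DESeq2 and 0 with no filter or a 2-fold minimum, against 1. With RLE size factors or DESeq2, 5 Gs and cAMP genes fell, and over all 12266 genes 3056 and 3226 fell. Libraries of 5097457 reads give 3 reads 0.594 CPM, which limits Igf2, Meg3, Dlk1, Grb10 and H19.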
